A study of Drosophila melanogaster with 5 samples.

Results

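The Hox gene complexes are a pair of gene clusters on chromosome arm 3R of Drosophila melanogaster. The Antennapedia complex was taken as 3R from 2480001 to 2830000 (350 kb) and the bithorax complex as 3R from 12480001 to 12810000 (330 kb), on genome build dm3. Every peak of 3 deposited lists that overlapped either window by at least 1 bp was a member, which gave 94 of 24341 peaks. Members were chosen by position among peaks that the authors' caller had selected on ChIP signal, and the complexes were singled out with peak counts of these data known, so the values below are a description. Of these, 62 were among the 11679 peaks of Yorkie (Yki), 21 among the 2557 peaks of Scalloped (Sd) and 11 among the 10105 peaks of RNA polymerase II (Pol II). The Antennapedia complex held 37 Yki, 13 Sd and 8 Pol II peaks, and the bithorax complex held 25 Yki, 8 Sd and 3 Pol II peaks. The rest of 3R held 2583 Yki, 545 Sd and 2346 Pol II peaks.

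The peaks came from chromatin immunoprecipitation followed by sequencing (ChIP-seq) of hand-dissected eye imaginal discs of third-instar larvae. The Yki and Sd libraries were made from discs of the genotype GMR-Gal4; UAS-Drosophila Yki S168A, and the Pol II library from discs of the genotype GMR-Gal4; UAS-Drosophila Yki-V5. Of 5 samples, 2 were input DNA, 1 for each genotype, and were not analysed here. All discs thus expressed a Yki transgene from GMR-Gal4, a driver that is active in the posterior part of the eye disc, and discs without a transgene were not analysed here. The S168A form lacks a serine whose phosphorylation by the Hippo kinase cascade keeps Yki out of the nucleus. Antibody and genotype differed together in every comparison of Yki or Sd with Pol II, so their effects cannot be told apart. Each antibody had 1 library from pooled discs, so there is no replicate spread and no p-value is given. Intervals are exact 95% intervals that cover counting error and treat peaks as independent. Read depth behind the lists is unknown. A site bound weakly in many cells and a site bound strongly in few cells cannot be told apart in pooled discs. The lists hold no expression values, so the tissue label was not checked against marker genes.

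Hox genes encode homeodomain transcription factors that give the body segments their identity, and their order along the chromosome follows the order of the body parts they specify. In the Antennapedia complex, lab, pb and Dfd act in the head and mouthparts, Scr acts in the labial and first thoracic segments, and Antp acts in the thorax. In the bithorax complex, Ubx acts in the posterior thorax, abd-A in the anterior abdomen and Abd-B in the posterior abdomen. Outside their own segments the genes are kept silent by Polycomb group proteins, which act through DNA elements spread over long regulatory regions, and misexpression of Antp in the eye-antennal disc turns antennae into legs. Yki is a coactivator of growth genes that the Hippo pathway holds in check. It does not bind DNA itself and is brought to it by partners such as Sd, a protein of the TEAD family. Pol II marks genes that are transcribed or that hold a paused polymerase at their promoter.

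All 8 Hox genes were found in the RefSeq gene table, which is on Release 6 of the genome and was used for names and gene order. From low to high coordinate, the table gives lab, pb, Dfd, Scr and Antp in the Antennapedia complex, and Ubx, abd-A and Abd-B in the bithorax complex. Between pb and Dfd stand zen2 and zen, which are homeobox genes without a segmental role (zen patterns the dorsal embryo), bcd, the maternal determinant of the anterior embryo, Ama, which encodes a secreted immunoglobulin-domain protein, and the microRNA gene mir-993. The microRNA gene mir-10 lies between Dfd and Scr, and the pair-rule gene ftz between Scr and Antp. The microRNA genes mir-iab-4 and mir-iab-8 lie between abd-A and Abd-B. Counting both end genes, the table lists 20 protein-coding genes from lab to Antp and 6 from Ubx to Abd-B. No dm3 gene models were used, so peaks are given by position and none is assigned to a gene.

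Both complexes held Yki peaks at about the density of the surrounding arm and far fewer Pol II peaks. Densities are per Mb and were not adjusted for the number of genes in a stretch. The Antennapedia complex had 22.9 Pol II peaks per Mb (9.87 to 45.0), the bithorax complex 9.09 (1.87 to 26.6) and the rest of 3R 86.2 (82.8 to 89.8). These densities were 0.265 and 0.105 times that of the rest of 3R, and neither complex's interval reached the interval of the rest of 3R. Yki peaks stood at 106 per Mb in the Antennapedia complex (74.4 to 146), 75.8 in the bithorax complex (49.0 to 112) and 94.9 in the rest of 3R (91.3 to 98.6), and the intervals overlapped. Sd peaks stood at 37.1 per Mb in the Antennapedia complex (19.8 to 63.5), 24.2 in the bithorax complex (10.5 to 47.8) and 20.0 in the rest of 3R (18.4 to 21.8), again with overlapping intervals. Yki peaks outnumbered Pol II peaks 4.63 to 1 in the Antennapedia complex and 8.33 to 1 in the bithorax complex, against 1.10 to 1 in the rest of 3R. Between the complexes, the Antennapedia complex had 1.40 times the Yki density, 1.53 times the Sd density and 2.51 times the Pol II density of the bithorax complex, and for every list the intervals of the complexes overlapped.

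**Figure D1:**
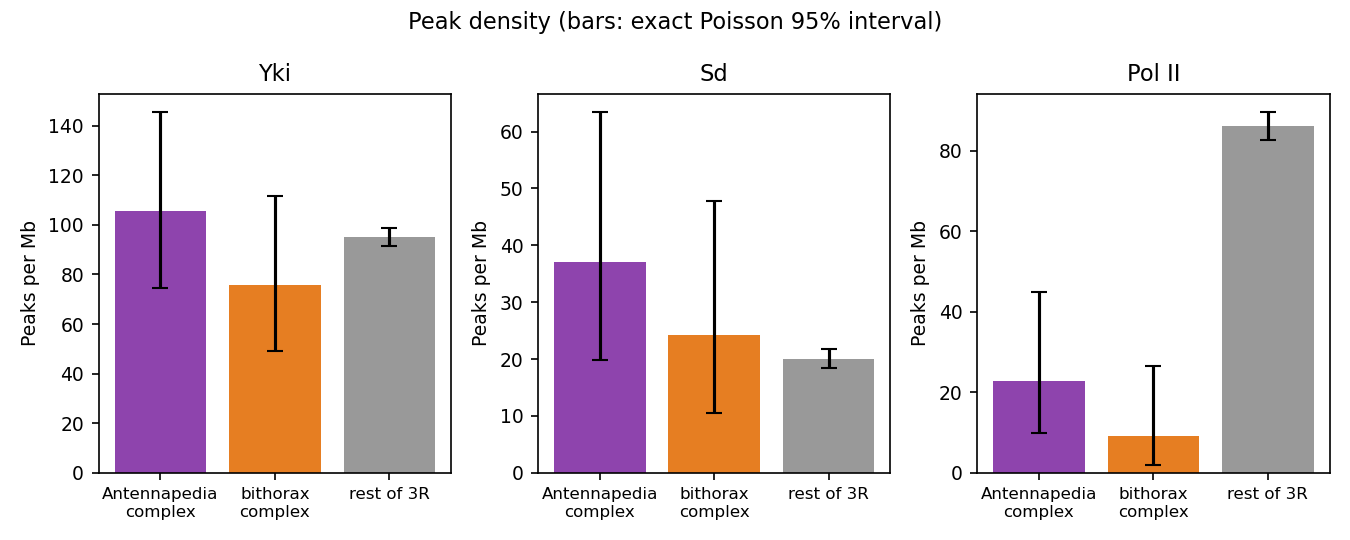
Peaks per Mb of the Yki, Sd and Pol II lists in the Antennapedia complex, the bithorax complex and the rest of 3R, with exact Poisson 95% intervals as error bars. Yki and Sd intervals of the complexes overlap those of the rest of 3R, while Pol II stands at 22.9 and 9.09 per Mb in the complexes and 86.2 in the rest of 3R.

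Against other stretches of 3R of the same length, the complexes stood at the low end for Pol II and in the middle for Yki. Windows were laid end to end along 3R, and those that touched a complex were left out. Of 75 such windows of 350 kb, 3 had as few Pol II peaks as the 8 of the Antennapedia complex or fewer, and the median window had 27. Of 80 windows of 330 kb, 0 had as few as the 3 of the bithorax complex, with a lowest count of 6 and a median of 25.5. This depends on where windows begin and end, since a 350 kb window, from 23800001 to 24150000, held 2 Pol II peaks. For Yki, 30 of the 75 windows reached the 37 peaks of the Antennapedia complex and 51 of the 80 reached the 25 of the bithorax complex. For Sd, 7 of the 75 windows reached the 13 peaks of the Antennapedia complex and 25 of the 80 reached the 8 of the bithorax complex. No window combined at least as many Yki peaks with at most as many Pol II peaks as either complex (0 of 75 and 0 of 80). For the bithorax complex this only repeats the Pol II count, since no 330 kb window had so few Pol II peaks. For the Antennapedia complex it rests on the 3 windows low in Pol II, which held 15, 17 and 2 Yki peaks.

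**Figure D2:**
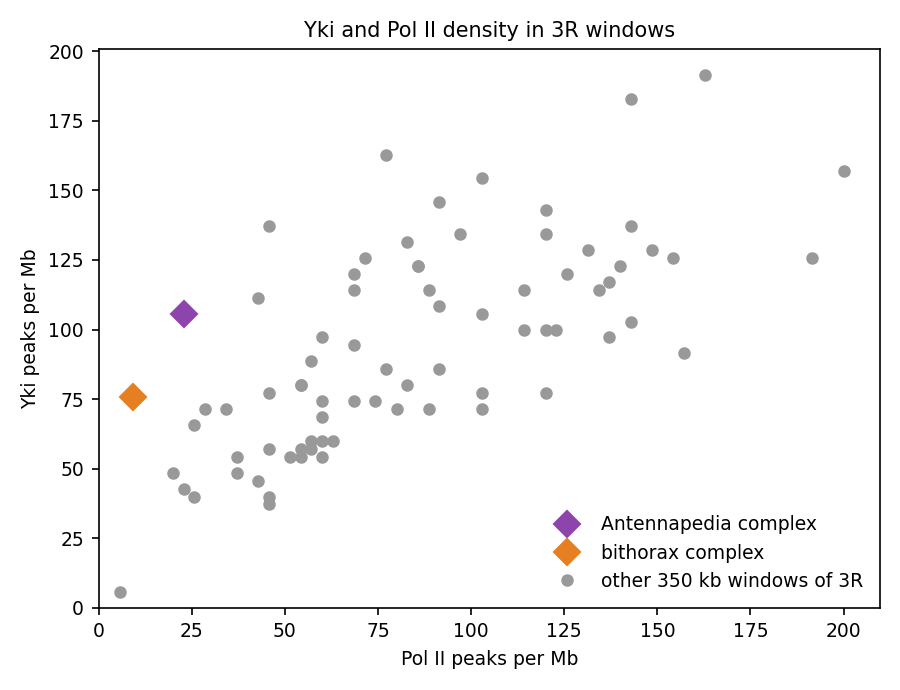
Yki peaks per Mb (vertical axis) against Pol II peaks per Mb (horizontal axis) for the 2 complexes and for 75 windows of 350 kb on 3R. The windows were laid end to end, and those that touched a complex were left out. The bithorax complex, of 330 kb, is shown with the same windows. The complexes lie at 22.9 and 9.09 Pol II peaks per Mb with 106 and 75.8 Yki peaks per Mb, to the left of windows with like Yki density.

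Each peak carries 1 value from the authors' peak caller, called the score here. It ranks peaks within a list and was not compared between lists. Several of the strongest Yki sites of the genome lay in the complexes. They held 0.531% of all Yki peaks and 5 of the 100 highest-scoring ones, 2 in the Antennapedia complex and 3 in the bithorax complex. In the highest decile of the whole Yki list, which began at a score of 50.4, were 8 of 37 peaks in the Antennapedia complex (21.6%, 9.83 to 38.2) and 12 of 25 in the bithorax complex (48.0%, 27.8 to 68.7), against 9.45% of Yki peaks in the rest of 3R. The median Yki score was 27.0 in the Antennapedia complex, 50.4 in the bithorax complex and 22.1 in the rest of 3R. The quartiles were 11.9 and 48.6 in the Antennapedia complex, 28.8 and 71.9 in the bithorax complex and 12.5 and 34.6 in the rest of 3R. The Yki peaks of the bithorax complex were thus mostly high-scoring, and those of the Antennapedia complex a mixture of high and low scores.

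The highest Yki peak of the Antennapedia complex was a 432 bp peak on 3R from 2585204 to 2585635, which lay 105 kb from the lower end of the window. Its score of 119.7 was the 6th highest of the whole Yki list. The next was on 3R from 2737873 to 2738336, with a score of 99.2 and rank 45. It was followed by a peak from 2605778 to 2606161 with a score of 84.0 and by one from 2696588 to 2696914 with a score of 78.7. The fifth, from 2733797 to 2734156, had a score of 63.7. Of these 5 peaks, the one at 78.7 had no Sd peak, and the one at 63.7 was the sole one on a Pol II peak. At the other end of the range, 10 of the 37 peaks were in the lowest quartile of the whole Yki list, whose highest score was 12.2, and the lowest, from 2497658 to 2497947, had a score of 6.05.

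The highest Yki peak of the bithorax complex was a 418 bp peak on 3R from 12574263 to 12574680. Its score of 112 was the 14th highest of the whole list. The next 3 by score lay together near the upper end of the window, in the last 30 kb. They were an 880 bp peak from 12783480 to 12784359 with a score of 106 and rank 33, a 373 bp peak from 12803657 to 12804029 with a score of 89.0 and rank 99, and an 840 bp peak from 12795192 to 12796031 with a score of 77.9. The fifth, from 12744787 to 12745151, had a score of 73.4, and all 5 had an Sd peak and no Pol II peak. In the highest quartile of the whole list were 12 of 37 Yki peaks in the Antennapedia complex (32.4%, 18.0 to 49.8) and 16 of 25 in the bithorax complex (64.0%, 42.5 to 82.0), against 24.9% in the rest of 3R. The 3 peaks in the lowest quartile were a 223 bp peak at 12571991 with a score of 4.28 beside the highest peak of the complex, a peak at 12759135 with a score of 5.82, which lay 379 bp from a Pol II peak, and a peak at 12759848 with a score of 6.64, which overlapped that Pol II peak.

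**Figure D3:**
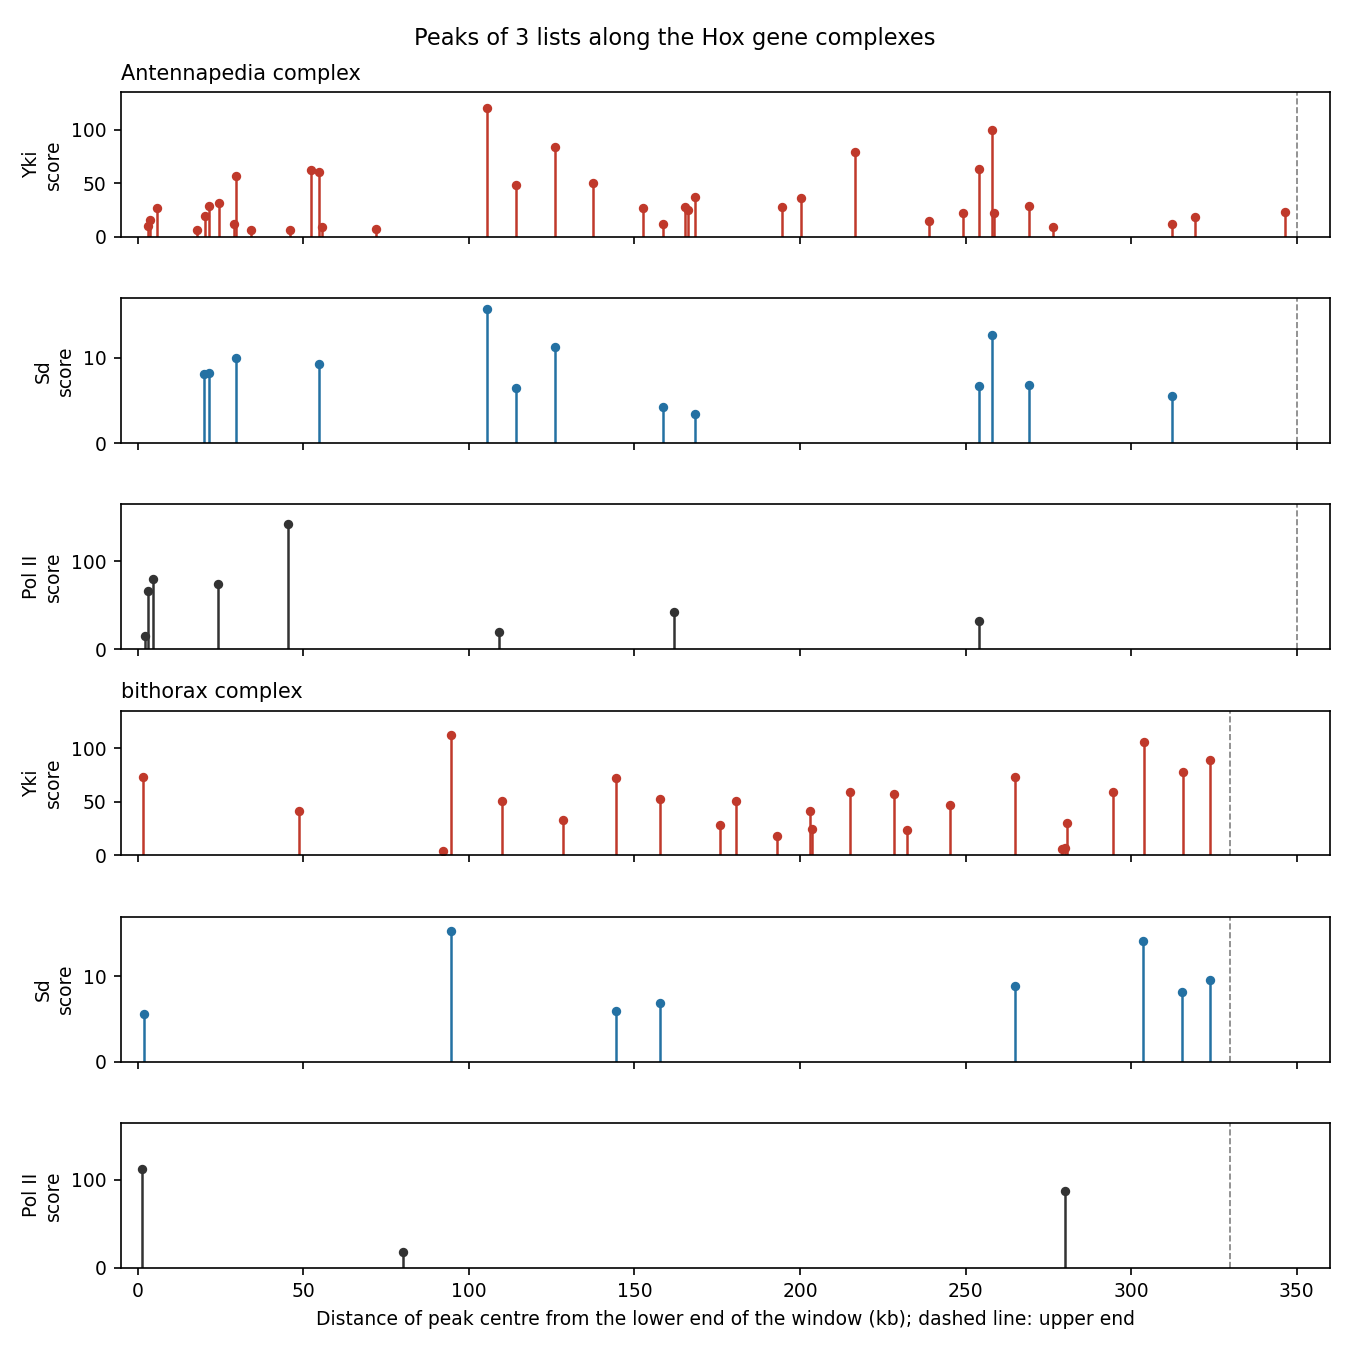
Scores of every Yki, Sd and Pol II peak (vertical axes, each list on its own scale) against the distance of the peak's centre from the lower end of its window in kb, for the Antennapedia complex (3 upper panels) and the bithorax complex (3 lower panels). Yki peaks with scores up to 119.7 and 112 run along both windows, Sd peaks stand under Yki peaks, and the 8 and 3 Pol II peaks leave most of each window empty.

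All Sd peaks of the complexes lay on a Yki peak: 13 of 13 in the Antennapedia complex (75.3 to 100%) and 8 of 8 in the bithorax complex (63.1 to 100%). In the rest of 3R the share was 95.4%, so the complexes were near this background. Each of the 21 Sd peaks met a different Yki peak, and 20 lay wholly inside it. The exception, on 3R from 2499874 to 2500243, reached 68 bp out of the Yki peak that begins at 2499942. The median distance between the centres was 18.5 bp (3 to 350.5 bp). The midpoints of the Sd and Yki peaks were therefore close at most sites. An Sd peak inside a Yki peak of little greater width leaves little room for an offset, and these distances were not measured in the rest of 3R. The widest offsets, 350.5, 316 and 231.5 bp, were in Yki peaks of 1054, 866 and 880 bp.

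In the Antennapedia complex the highest Sd score was 15.7, at the site from 2585257 to 2585550 inside the highest Yki peak, and ranked 39 in the Sd list, whose highest score was 16.3. The second was 12.7, from 2737923 to 2738251 inside the second-highest Yki peak, and the third was 11.3, from 2605831 to 2606080 inside the third-highest. A further 4 sites lay in the lower part of the window, with Sd scores of 8.11 at 2499874, 8.27 at 2501506, 9.95 at 2509480 and 9.25 at 2534684. Their Yki scores were 19.2, 28.8, 56.9 and 60.2. The remaining 6 sites had Sd scores between 3.39 and 6.82. They were at 2594044 with a Yki score of 48.6, at 2638486 with 11.9, at 2648121 with 37.4, at 2733877 with 63.7, at 2749018 with 28.8 and at 2792387 with 11.9. The order of the Sd scores thus followed the Yki scores at the 3 highest sites and departed from it lower down.

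In the bithorax complex the highest Sd score was 15.4, from 12574320 to 12574614 inside the highest Yki peak, with rank 46. The second was 14.1, from 12783553 to 12783823 inside the second-highest Yki peak, with rank 97. The next 2 were 9.62 at 12803724 and 8.82 at 12744836, inside Yki peaks of 89.0 and 73.4. The other 4 sites had Sd scores of 8.13 at 12795262, 6.83 at 12637517, 5.92 at 12624203 and 5.57 at 12481932. Their Yki scores were 77.9, 52.2, 71.9 and 72.8. Every bithorax Yki peak with an Sd peak thus scored above 50. In the highest decile of the Sd list were 2 of 13 Sd peaks in the Antennapedia complex (1.92 to 45.4%) and 2 of 8 in the bithorax complex (3.19 to 65.1%), against 7.71% in the rest of 3R, which both intervals hold.

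Yki peaks of the complexes overlapped an Sd peak in 13 of 37 cases in the Antennapedia complex (35.1%, 20.2 to 52.5) and in 8 of 25 in the bithorax complex (32.0%, 14.9 to 53.5), against 18.9% in the rest of 3R. The interval of the bithorax complex holds that background, and that of the Antennapedia complex lies just above it. In the rest of 3R, Yki peaks of higher score had Sd more often, from 3.49% in the lowest quartile of Yki score to 44.0% in the highest. The rest of 3R, weighted to the quartiles of Yki score that each complex holds, would have 21.8% for the Antennapedia complex and 32.7% for the bithorax complex, and both complexes' intervals hold these values. Quartiles match score only coarsely. Of Yki peaks in the highest quartile, 8 of 12 in the Antennapedia complex and 12 of 16 in the bithorax complex were in the highest decile. In the rest of 3R 244 of 643 were, so the weighted values are probably too low. Among Yki peaks of the highest decile, 14 of 20 in the complexes had an Sd peak (70.0%, 45.7 to 88.1), against 68.0% of 244 in the rest of 3R. With so few peaks and this coarse match, the share of Yki peaks with Sd in the complexes was not distinguishable from that of peaks of like score elsewhere on the arm.

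Within the complexes, Yki peaks with Sd scored higher than those without. In the Antennapedia complex the median score was 48.6 for the 13 peaks with Sd (11.9 to 119.7) and 22.1 for the 24 without (6.05 to 78.7), and 16 of the 24 exceeded the lowest peak with Sd. In the bithorax complex the medians were 75.6 for the 8 peaks with Sd (52.2 to 112) and 32.9 for the 17 without (4.28 to 59.4), and 3 of the 17 exceeded the lowest peak with Sd. The groups therefore overlapped widely in the Antennapedia complex and little in the bithorax complex. In the rest of 3R the medians were 39.3 with Sd and 18.9 without. The highest Yki peaks without an Sd peak were those at 2696588 (78.7) and 2532077 (62.5) in the Antennapedia complex and at 12774320 (59.4), 12694923 (59.2) and 12708287 (56.9) in the bithorax complex. No Sd peak was called at these sites, which does not show that Sd was absent.

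**Figure D4:**
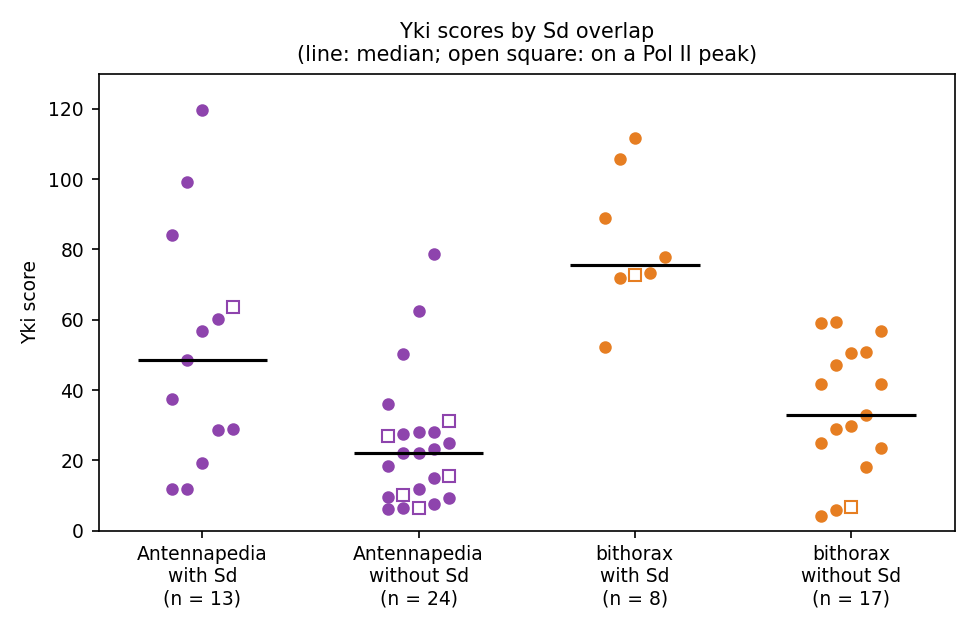
Yki score (vertical axis) of each Yki peak of the Antennapedia and bithorax complexes, split by overlap with an Sd peak, with the median as a line and peaks on a Pol II peak as open squares. In the Antennapedia complex the ranges overlap from 11.9 to 78.7, while in the bithorax complex the 8 peaks with Sd begin at 52.2 and the 17 without end at 59.4.

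Of the 8 Pol II peaks of the Antennapedia complex, 5 lay in the first 50 kb of the window, the side on which lab stands in the Release 6 gene order. The highest was a 1435 bp peak on 3R from 2524656 to 2526090 with a score of 143, the 24th highest of the Pol II list. A 2396 bp peak from 2483499 to 2485894, the widest Pol II peak of either complex, had a score of 80.0. The others of this group were at 2504071 (74.0), 2482777 (66.7) and 2481940 (14.9). The remaining 3 stood alone, at 2589039 with a score of 19.6, at 2641889 with 42.2 and at 2733863 with 32.4. The upper 95.9 kb of the window held no Pol II peak.

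The 3 Pol II peaks of the bithorax complex were spread over the window. The highest was an 860 bp peak on 3R from 12480844 to 12481703, 0.843 kb above the lower end of the window, with a score of 113. A 351 bp peak from 12759742 to 12760092 had a score of 87.4, and a 281 bp peak from 12559977 to 12560257 had one of 18.4. In the highest decile of the Pol II list were 1 of 8 Pol II peaks in the Antennapedia complex and 1 of 3 in the bithorax complex, against 9.29% in the rest of 3R, a background that both wide intervals hold (0.316 to 52.7% and 0.840 to 90.6%). The few Pol II peaks of the complexes were thus not confined to low scores.

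Of these Pol II peaks, a Yki peak overlapped 5 of 8 in the Antennapedia complex (62.5%, 24.5 to 91.5) and 2 of 3 in the bithorax complex (66.7%, 9.43 to 99.2), near the background of 63.0% in the rest of 3R. An Sd peak overlapped 1 of 8 in the Antennapedia complex and 0 of 3 in the bithorax complex, against 8.31% in the rest of 3R. With 3 peaks, the interval of the bithorax share runs from 0 to 70.8%. With so few Pol II peaks and such wide intervals, these shares cannot show whether Pol II peaks of the complexes met Yki as often as elsewhere.

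Most Yki peaks of the complexes lay outside Pol II peaks. No Pol II peak overlapped 31 of 37 Yki peaks in the Antennapedia complex (83.8%, 68.0 to 93.8) and 23 of 25 in the bithorax complex (92.0%, 74.0 to 99.0), against 43.4% of Yki peaks in the rest of 3R (41.5 to 45.4). Both complexes' intervals lie above that of the rest of 3R, and they overlap each other. In none of the 75 windows of 350 kb and the 80 windows of 330 kb was the share as high, with a highest value of 82.6% for either length. At both lengths this value came from the same 19 of 23 Yki peaks, in a window that ends at 11550000. The 83.8% of the Antennapedia complex lies close to it, and window shares depend on where windows begin. With 8 Pol II peaks in the Antennapedia complex and 3 in the bithorax complex, few Yki peaks could overlap one. This share, and the Pol II classes and distances to Pol II given below, therefore partly restate the low Pol II density. For Sd, no Pol II peak overlapped 12 of 13 peaks in the Antennapedia complex (64.0 to 99.8%) and 8 of 8 in the bithorax complex (63.1 to 100%), against 64.2% in the rest of 3R, which both intervals just hold.

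By class, the Antennapedia complex had 1 Yki peak that overlapped both other proteins, and the bithorax complex also had 1. Sd alone was found at 12 Yki peaks in the Antennapedia complex and 7 in the bithorax complex, Pol II alone at 5 and 1, and no other protein at 19 and 16. Of the 62 Yki peaks of both complexes, 3.23% had both proteins, 30.6% Sd alone, 9.68% Pol II alone and 56.5% neither. In the rest of 3R the shares of these classes were 8.21, 10.7, 48.4 and 32.7% of 2583. The class that was scarce in the complexes was therefore Yki on Pol II without Sd, at 9.68% (3.63 to 19.9) against 48.4% (46.4 to 50.3). The sites with all 3 proteins were at 2733797 in the Antennapedia complex, where the Yki peak of 360 bp, the Sd peak of 210 bp and the Pol II peak of 242 bp lay on each other, and at 12481165 in the bithorax complex. At 12481165 the Sd peak lay 228 bp from the Pol II peak, and the 1054 bp Yki peak reached both.

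The share of Yki peaks without Pol II was 76.9% or more in each quartile of Yki score inside the complexes. Outside them it fell from each quartile to the next, but not up to the highest scores. In both complexes together it was 76.9% of 13 peaks in the lowest quartile of Yki score, 80.0% of 5 in the second, 87.5% of 16 in the third and 92.9% of 28 in the highest (76.5 to 99.1). In the rest of 3R it was 62.3% in the lowest quartile, 48.3% in the second, 33.5% in the third and 30.6% in the highest. The intervals of the complexes and the rest of 3R were apart in the upper 2 quartiles and overlapped in the lower 2. Among Yki peaks of the highest decile, 18 of 20 in the complexes had no Pol II peak (90.0%, 68.3 to 98.8), against 41.4% of 244 in the rest of 3R (35.1 to 47.9). In the rest of 3R this decile thus stood above the 30.6% of the highest quartile, of which it is a part. Inside the complexes the quartiles hold few peaks and their intervals overlap, so no trend with score can be read there.

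**Figure D5:**
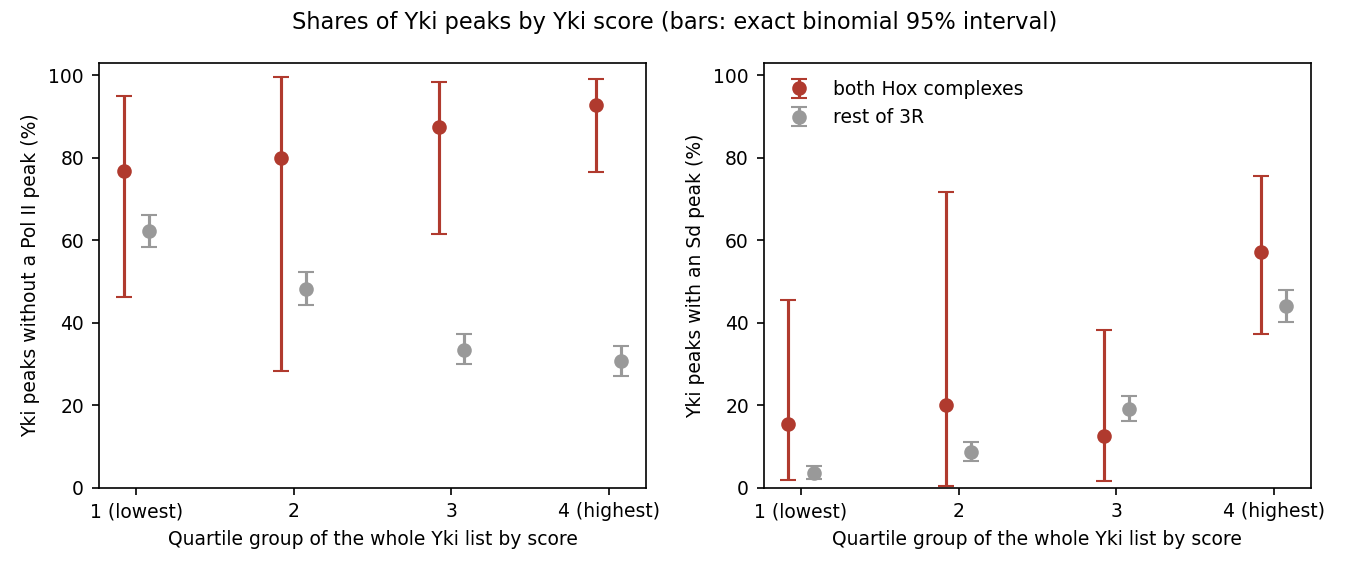
Percent of Yki peaks without a Pol II peak (left) and with an Sd peak (right) in each quartile of the whole Yki list by score, for both Hox complexes together and for the rest of 3R, with exact binomial 95% intervals. In the highest quartile, 92.9% of the complexes' Yki peaks had no Pol II peak, against 30.6% in the rest of 3R, while the intervals of the Sd share overlap in every quartile.

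In the bithorax complex, Yki peaks outside Pol II peaks also lay far from the nearest one, while in the Antennapedia complex these distances were nearer to those of the rest of 3R. The median distance was 8.50 kb for the 31 such peaks of the Antennapedia complex (2.25 to 65.7 kb) and 33.9 kb for the 23 of the bithorax complex (0.379 to 99.0 kb), against 5.65 kb for 1122 in the rest of 3R. More than 10 kb from any Pol II peak were 12 of 31 in the Antennapedia complex, 21 of 23 in the bithorax complex and 34.1% in the rest of 3R. The highest Yki peak of the Antennapedia complex was 3.40 kb from a Pol II peak, and that of the bithorax complex 14.0 kb.

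Long stretches without Pol II still carried Yki and Sd. In the bithorax complex no Pol II peak was called from 12560258 to 12759741, a stretch of 199 kb that held 17 Yki and 4 Sd peaks. It was the 4th longest of 2356 stretches between neighbouring Pol II peaks on 3R. The 3 longer ones, of 278, 241 and 228 kb, held 0, 1 and 5 Yki peaks. The 5th and 6th longest, of 190 and 189 kb, were nearer to it, with 13 and 12 Yki peaks and 4 Sd peaks each. A second bithorax stretch of 78.3 kb, from 12481704 to 12559976, held 1 Yki and 1 Sd peak wholly inside it. In the Antennapedia complex the longest stretch between Pol II peaks of the window was 91.7 kb, from 2642206 to 2733862, with 8 Yki and 1 Sd peaks. The next was 62.9 kb, from 2526091 to 2589038, with 5 Yki and 2 Sd peaks, the highest Yki peak of the complex among them. From the last Pol II peak at 2734104 to the next one beyond the window lay 158 kb, and the part inside the window held 7 Yki and 3 Sd peaks.

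Along the Antennapedia complex, the first 50 kb held 11 Yki, 3 Sd and 5 Pol II peaks. The following 50 kb segments held 4, 4, 6, 4, 5 and 3 Yki peaks and 1, 3, 2, 0, 3 and 1 Sd peaks. Neighbouring Yki peaks were a median of 6.12 kb apart, and the longest stretch without one was 35.9 kb, from 2756460 to 2792373. Along the bithorax complex, the 6 segments of 50 kb held 2, 2, 3, 4, 6 and 5 Yki peaks, and the last 30 kb held 3. Sd peaks numbered 1 in each of these 6 segments except the fifth, from 12680001 to 12730000, which had 0, and 3 in the last 30 kb. Neighbouring Yki peaks were a median of 12.2 kb apart, and the longest stretch without one was 46.3 kb, from 12482219 to 12528506. The longest Sd-free stretch, 107 kb from 12637721 to 12744835, held 9 Yki peaks. Spacings between neighbouring Yki peaks were under 1 kb in 6 of 36 cases in the Antennapedia complex and 3 of 24 in the bithorax complex, against 623 of 2580 in the rest of 3R, where the median was 3.66 kb.

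Yki peaks of the complexes were of ordinary or somewhat lower width. The median was 332 bp in the Antennapedia complex, 373 bp in the bithorax complex and 403 bp in the rest of 3R. The widest was 866 bp in the Antennapedia complex, at 2499942, and 1263 bp in the bithorax complex, at 12724589. Sd peaks had medians of 246 bp in the Antennapedia complex, 262 bp in the bithorax complex and 260 bp in the rest of 3R, with a widest peak of 388 bp at 2648121 and of 538 bp at 12624203. Against the rest of 3R, the higher Yki scores of the bithorax complex thus did not come with a greater median width. Against the Antennapedia complex, both its median score and its median width were higher. Within the bithorax complex, the higher-scoring Yki peaks with Sd had a median width of 557 bp, and those without Sd 302 bp. Yki peaks covered 3.98% of the Antennapedia complex, 3.51% of the bithorax complex and 4.72% of the rest of 3R, and Pol II peaks covered 1.75, 0.452 and 5.40%.

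The scarcity of Pol II ended near the edges of the bithorax window. The 100 kb below it held 12 Yki, 6 Sd and 13 Pol II peaks and the 100 kb above it 20 Yki, 6 Sd and 23 Pol II peaks, and 5 of 12 and 5 of 20 of these Yki peaks had no Pol II peak. The nearest Pol II peaks were 1.83 kb below the window and 5.67 kb above it. The Antennapedia window had other neighbours. The 100 kb below it held 1 Yki, 0 Sd and 2 Pol II peaks. The Yki peak began at 2472384, at the upper end of a 189 kb stretch without one. The 100 kb above it held 13 Yki, 1 Sd and 10 Pol II peaks, with the nearest Pol II peak 62.6 kb above the window. The Yki peaks nearest to the edges were 3.06 kb inside and 7.17 kb outside the lower end and 3.13 kb inside and 33.1 kb outside the upper end of the Antennapedia window. For the bithorax window they were 1.16 kb inside and 1.82 kb outside the lower end and 5.97 kb inside and 7.52 kb outside the upper end. With both windows extended by 50 kb at each end, the Pol II density of the bithorax complex was 0.621 times that of the rest of 3R and that of the Antennapedia complex 0.232 times, so the order of the complexes for Pol II depended on where the bithorax window ends.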

How the data were processed

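ChIP-seq peak lists for Yki, Sd and Pol II were analysed, 1 library each. The submitters' processing notes name MACS2, Bowtie, CASAVA 1.8.2 and build dm3; other versions, settings and the control library were not given in the sources used here. The deposited score in the fifth column has no stated unit. Its minima (Yki 3.01, Sd 2.00, Pol II 3.01) lie just above whole numbers, as a −log10 q value with a whole-number limit would. Deposited start and end positions were read as BED and written 1-based.

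Peaks overlapped when they shared at least 1 bp. The rest of 3R was 27.2 Mb, with the arm ending at its last peak. Intervals are exact Poisson or Clopper-Pearson. Deciles and quartiles divide a whole list by score. Peaks are named by rule: each Sd peak, the 5 highest Yki and Pol II peaks of each complex, the widest peaks, the longest stretches without Yki or Pol II peaks and the peaks at the edges. Other peaks were chosen after their values were seen. Members and lists were chosen with earlier results of these data known. Software was scipy 1.17.1, pandas 2.3.3, numpy 2.4.6 and matplotlib 3.10.9 under Python 3.11.15. Overlap counting was tested on simulated data. The planned description of member sequences was not run, since no sequences were used here.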

Additional observations from a re-analysis of the deposited data

How the results depend on the processing

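Each alternative was set against the interval of the complex's reported value (quartiles for medians). Of 196 alternative values, 169 stayed inside and 19 lay on the other side of the background or of the other complex. The Pol II density of the Antennapedia complex ranged from 0.155 to 0.412 times the rest of 3R, and that of the bithorax complex from 0.0830 to 0.621, the last with windows extended by 50 kb. That extension turned the Antennapedia to bithorax ratio to 0.374 for Pol II, 0.932 for Yki and 0.956 for Sd. It also gave differences in the Yki share without Pol II of 26.5 points for the bithorax complex against the rest of 3R and 12.1 between the Antennapedia and the bithorax complex. The difference in median Pol II score between the bithorax complex and the rest of 3R was then -2.33. Windows shortened by 25 kb gave an Sd density in the bithorax complex of 0.887 times the rest of 3R. With peaks reduced to 200 bp, the Yki share without Pol II exceeded the rest of 3R by 21.2 points in the Antennapedia complex and 25.3 in the bithorax complex, against 40.3 and 48.6 as reported; every alternative kept both above 0. With lists of equal length this was 29.0 points for the bithorax complex and 6.25 between the Antennapedia and the bithorax complex, the difference in the share with Sd between them was 22.7 points, and that in Yki peaks with neither for the Antennapedia complex was -4.93. The upper 50% of each list gave a Yki density in the bithorax complex of 1.31 times the rest of 3R and a median Pol II score difference in the Antennapedia complex of -2.86. The background weighted to quartiles of Yki score, added after seeing the data with that of same-length windows holding a Yki peak, gave 56.3 points without Pol II for the bithorax complex and -0.745 with Sd. Quartiles match score only coarsely. In the rest of 3R, 41.4% of Yki peaks in the highest decile had no Pol II peak and 68.0% had Sd, against 30.6% and 44.0% in the highest quartile. The cause of the shifts between alternatives was not tested. With segments of 25 kb, the first of the Antennapedia complex held 7 Yki and 4 Pol II peaks. No paired analysis was possible because no antibody had a second library. Depth is unknown, so a site without a peak is one where none was called.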

Other observations

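Other parts of 3R also combined many Yki peaks with a lack of Pol II. Among the stretches between neighbouring Pol II peaks, the most Yki peaks, 23, lay from 787184 to 906181, in 119 kb with 7 Sd peaks. The next stretch, 159 kb from 6240616 to 6399909, held 22 Yki and 10 Sd peaks, the most Sd of any. The 199 kb bithorax stretch came next with 17 Yki and 4 Sd peaks, level with a stretch of 38.6 kb from 17406125 to 17444686 that held 17 Yki and 3 Sd peaks. These stretches were chosen after their values were seen.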
